A study of Mus musculus with 4 samples.

Results

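The 4 Hox gene clusters of the mouse were examined in whole-genome bisulfite sequencing of embryonic brain. The members were 38 protein-coding Hox genes named in a list, from HoxA on chromosome 6 (Hoxa2 to Hoxa13, 10 genes), HoxB on chromosome 11 (10 genes), HoxC on chromosome 15 (9 genes) and HoxD on chromosome 2 (9 genes), of 20505 autosomal protein-coding genes with a measured window. Each gene was described by its window, the annotated body with 2 kb on each side. The 4 clusters, each taken from the first to the last base of its genes' windows, covered 500988 bp and held 12127 reference CpGs, of which 6182 had at least 5 reads in all 4 libraries. That was 51.0% of the CpGs there, against 73.1% of the autosomal CpGs.

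The libraries came from 4 male embryos at E11.5, a single embryo in every group, which leaves levels without an SD and differences without a replicate check. All were of the 129S6.cg Tet1<tm1Koh> line, in which an insertion cassette sits at the first coding ATG of Tet1, an allele of C57BL/6 (B6) origin backcrossed to 129S6. The groups were Tet1 knockout (KO) and wild type (WT) embryos of heterozygous dams that were fed excess folic acid (30 ppm FA) or control FA (3 ppm), named KO 30 ppm, WT 30 ppm, KO 3 ppm and WT 3 ppm below. Both purified diets also held succinylsulfathiazole, an antibiotic that limits folate made by gut bacteria. The tissue ran from the rostral forebrain to the caudal hindbrain and was cut above the otic vesicle. The sample titles carry embryo numbers, and in the study's list of embryos the entries with the same number, diet, genotype and sex give a neural tube defect for both KO embryos and a normal phenotype for both WT embryos. The numbers also differ between all 4 embryos in the part before the hyphen, where the list gives the pregnancy, so no KO and WT embryo shared one. Genotype, neural tube defect and litter therefore cannot be told apart in any KO against WT comparison here. Diet and litter likewise cannot be told apart in any comparison of 30 ppm with 3 ppm. The tissue label could not be checked against marker expression, and the Tet1 cassette is not read by these files.

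TET1 oxidises 5-methylcytosine, a first step of active demethylation, and bisulfite sequencing does not tell 5-methylcytosine from 5-hydroxymethylcytosine. Hox genes encode transcription factors with a homeodomain, the part that binds DNA, which is encoded by the homeobox. They give cells their position along the head-to-tail axis. Their order on the chromosome follows the order of their expression domains, so that low-numbered genes are active up into the hindbrain and high-numbered ones only in the trunk, limb or tail. In forebrain and midbrain the clusters are silent and are known as large Polycomb domains. They are also rich in CpG islands, stretches of dense CpGs that are usually free of methylation.

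The sequences below carry some of the largest genotype differences found in the clusters, and show how few CpGs some of them rest on. They are read from the plus strand of GRCm38 (mm10), 5′ to 3′, with each CpG in capitals. The first is 300 bases around the middle CpG of a 1 kb tile between Hoxc13 and Hoxc12, chr15:102929761-102930060. The second, chr15:102989198-102989497, lies in an intron of the long annotated Hoxc5 body. The third, chr11:96267039-96267338, lies between Hoxb13 and Hoxb9 with no annotated gene over it.
HoxC, upstream of Hoxc12: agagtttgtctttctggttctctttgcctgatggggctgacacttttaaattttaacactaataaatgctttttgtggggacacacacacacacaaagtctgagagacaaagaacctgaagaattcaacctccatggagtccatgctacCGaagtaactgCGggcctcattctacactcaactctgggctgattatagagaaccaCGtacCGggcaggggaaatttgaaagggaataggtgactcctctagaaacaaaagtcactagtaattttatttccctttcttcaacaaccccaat
HoxC, Hoxc5 intron: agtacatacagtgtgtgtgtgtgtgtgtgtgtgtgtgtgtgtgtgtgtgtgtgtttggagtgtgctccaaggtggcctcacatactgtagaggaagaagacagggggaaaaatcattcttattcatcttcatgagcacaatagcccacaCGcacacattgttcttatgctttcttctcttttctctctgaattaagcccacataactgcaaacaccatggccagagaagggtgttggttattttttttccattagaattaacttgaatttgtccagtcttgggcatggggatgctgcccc
HoxB, upstream of Hoxb9: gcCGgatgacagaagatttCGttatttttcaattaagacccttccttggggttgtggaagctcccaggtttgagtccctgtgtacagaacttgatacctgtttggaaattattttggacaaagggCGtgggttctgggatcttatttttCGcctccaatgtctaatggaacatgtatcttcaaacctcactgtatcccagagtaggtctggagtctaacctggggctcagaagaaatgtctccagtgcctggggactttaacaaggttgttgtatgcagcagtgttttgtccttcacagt

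In the first of these stretches, 4 CpGs were measured and 54.4% of reads were methylated in KO 30 ppm and 60.9% in KO 3 ppm, against 15.7% in WT 30 ppm and 19.6% in WT 3 ppm. The second stretch holds a single CpG, methylated in 7 of 17 reads in KO 30 ppm, 4 of 17 in WT 30 ppm, 18 of 23 in KO 3 ppm and 4 of 18 in WT 3 ppm. In the third, 31.8% of reads at 4 CpGs were methylated in KO 30 ppm, 6.52% in WT 30 ppm, 14.5% in KO 3 ppm and 1.69% in WT 3 ppm. All 3 stretches are poor in CpGs. In each of them both KO libraries were above both WT libraries, but their tiles were chosen for a large KO minus WT difference.

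Most Hox gene windows had little methylation in all 4 libraries, Hoxd1 being the exception, and KO was a few percentage points above WT at both diets. Over all cluster CpGs within gene windows, 9.73% of reads were methylated in KO 30 ppm, 6.22% in WT 30 ppm, 9.45% in KO 3 ppm and 6.30% in WT 3 ppm. KO was thus 1.57 times WT at 30 ppm and 1.5 times WT at 3 ppm. The median window stood at 8.55%, 5.51%, 8.37% and 4.92% in the same order of libraries, while the median of all gene windows lay at 83.5%, 81.1%, 82.9% and 81.6%. In the flanks, 100 kb on each side of each cluster, the levels were 69.0%, 64.4%, 68.6% and 64.8%, far above the windows in every library. KO was above WT in the flanks too, at both diets and by more points than in the windows. In bulk tissue a low level may come from a few cells that are methylated throughout or from scattered methylation in many, which cannot be told apart.

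Methylation was not even along the clusters. HoxC and HoxA were the lowest, at 4.93% and 6.04% over all their CpGs in WT 30 ppm, and HoxD (11.1%) and HoxB (24.9%) the highest. The HoxB level came from the 70009 bp between Hoxb13, the posterior end gene, and Hoxb9, where 737 CpGs were methylated at 51.4% in KO 30 ppm, 49.8% in WT 30 ppm, 53.2% in KO 3 ppm and 48.7% in WT 3 ppm. There KO minus WT at 30 ppm was 1.57 points over pooled reads and 4.73 points as a mean over CpGs. A second methylated stretch separated Hoxb2 from Hoxb1 at the other end, at 72.3%, 63.4%, 72.1% and 68.1% in the same order. In HoxD the stretch between Hoxd3 and Hoxd1 stood at 47.5%, 41.4%, 46.9% and 44.1%. The 3 stretches thus set off the outermost gene of a cluster, and KO was above WT at both diets in each.

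KO exceeded WT in each whole cluster at both diets. HoxA differed by 3.08 points on the 30 ppm diet and by 2.82 on the 3 ppm diet, HoxB by 3.14 and 3.499, HoxC by 4.36 and 3.87, and HoxD by 3.86 and 3.04. The mean of the KO libraries over all 4 clusters was 16.1% and that of the WT libraries 12.8%. An exact permutation test of 2 against 2 libraries, two-sided, cannot go below p = 0.333, the value it gave for every cluster. The autosomes as a whole moved by 1.78 points at 30 ppm and 0.409 points at 3 ppm. A higher level in KO was not confined to the clusters, since their flanks also had it at both diets. Mitochondrial CpGs, taken as a background for incomplete conversion, had 0.914% to 0.938% methylated reads in the 4 libraries.

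Of the 38 gene windows, 37 were higher in KO at 30 ppm and all 38 at 3 ppm, beside 85.8% and 71.2% of all gene windows. With Fisher's exact test on reads, adjusted over all gene windows by Benjamini-Hochberg, 31 were called higher at 30 ppm, where 51.3% of all windows were, and 30 at 3 ppm, where 36.4% were. No member was called lower, where 0.849% of all windows were at 30 ppm and 4.51% at 3 ppm, and none was lower at an unadjusted p under 0.05. At both diets 26 were called, against 27.6% of all windows. Both KO libraries were above both WT libraries in 36 members, against 59.7% of all windows. The median member was 2.85 points higher in KO at 30 ppm and 2.90 points at 3 ppm, and over all windows 2.13 and 1.10 points. The test compares reads of 2 libraries and not conditions, and a read is counted at each CpG it covers, so its p-values are too small. With 1 CpG kept per 200 bp, which also leaves fewer reads, 17 windows were called at 30 ppm and 13 at 3 ppm, against 26.0% and 11.7% of all windows. Windows also overlap, since 29 members share bases with the window of another member, and the annotated bodies of Hoxa3, Hoxc5, Hoxd3 and Hoxd4 run across their neighbours.

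**Figure D1:**
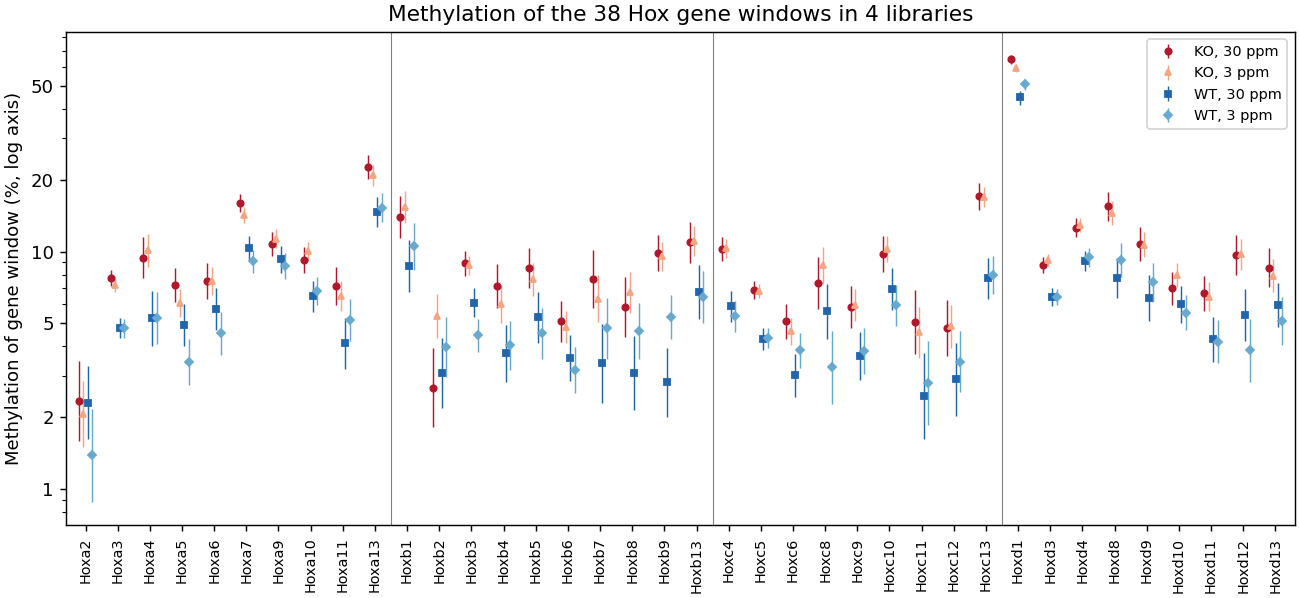
Methylation level of the window of each of the 38 Hox genes in the 4 libraries, in percent on a log axis, with 95% Wilson intervals for counting error as bars and genes grouped by cluster. Hoxd1 stands apart at 44.6% to 64.6%, all other genes lie under 25%, and the red and orange KO points are above the blue WT points for 36 genes.

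Hoxd1, the anterior end gene of its cluster, was the exception in level, and had the largest difference at 30 ppm and in the mean of the diets. At 3 ppm it came after Hoxc13. Its window (chr2:74760980-74767142, 63 CpGs) was methylated at 64.6% (95% Wilson interval 61.6 to 67.6) in KO 30 ppm, 44.6% (41.7 to 47.6) in WT 30 ppm, 59.6% (57.1 to 62.0) in KO 3 ppm and 50.6% (47.8 to 53.5) in WT 3 ppm. Wilson intervals cover counting error only. The KO libraries were both above the WT libraries, by 20.03 points at 30 ppm (adjusted p = 6.2e-18, Fisher's exact test) and 8.96 points in the 3 ppm pair (adjusted p = 2.4e-05). Its promoter, the start site with 1 kb to either side, was much lower than the window, at 25.9% in KO 30 ppm, 3.33% in WT 30 ppm, 21.5% in KO 3 ppm and 8.42% in WT 3 ppm. These promoter levels rest on 13 CpGs and 112 to 274 reads. The promoter difference passed Fisher's exact test at 30 ppm (adjusted p = 4.1e-06) and at 3 ppm (adjusted p = 0.0014).

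The authors' lists of differentially methylated regions (DMRs) held 1 region in the clusters, in the coding part of the second exon of Hoxd1, among those higher in KO at 3 ppm. Its 10 CpGs were methylated at 68.9% (60.1 to 76.5) in KO 30 ppm, 41.1% (33.4 to 49.4) in WT 30 ppm, 75.7% (68.3 to 81.8) in KO 3 ppm and 38.9% (31.3 to 47.04) in WT 3 ppm. The 3 ppm values chose the region. The 30 ppm libraries took no part in that choice, and there KO was 27.8 points above WT (p = 1.1e-05, two-sided Fisher's exact test on reads). In WT 30 ppm the first 6 CpGs lay at 15.4% to 31.2% and the last 4 at 47.4% to 73.3%, while in KO 30 ppm all 10 lay at 53.8% to 84.6%. The region covers the homeobox of Hoxd1. The authors' lists held 4436 regions higher in KO at 30 ppm, none of them in a cluster and 7 in the flanks, and 4437 at 3 ppm, of which 1 lay in a cluster and 6 in the flanks. None of the regions lower in KO (54 at 30 ppm and 57 at 3 ppm) lay in a cluster. Nor did any region that differed between diets, in lists of 139 and 77 for KO and 79 and 65 for WT. The clusters hold 12127 of 20383623 autosomal reference CpGs, so absence from lists this short cannot show that such changes are missing there.

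The homeobox of every member was located by translating the annotated coding sequence, to ask whether the methylated Hoxd1 homeobox had a counterpart. Of the 38 homeoboxes, 32 had at least 3 measured CpGs. In Hoxd1, 5 CpGs were methylated at 62.7% in KO 30 ppm, 23.9% in WT 30 ppm, 76.3% in KO 3 ppm and 31.0% in WT 3 ppm. In the 31 other genes the highest WT value was 6.67%, and the highest KO value was 13.4%, in Hoxb9 at 3 ppm. Their medians were 4.19%, 2.67%, 3.45% and 1.85%. Both KO libraries were above both WT libraries in 13 of the 31, and in 8 of 33 for the rest of the coding sequence without Hoxd1. No share over all genes was computed for such coding stretches. The same ordering held in 54.8% of all promoters and 59.7% of all gene windows, which are larger features. This look at homeoboxes was added after the Hoxd1 values were seen and has no test.

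**Figure D2:**
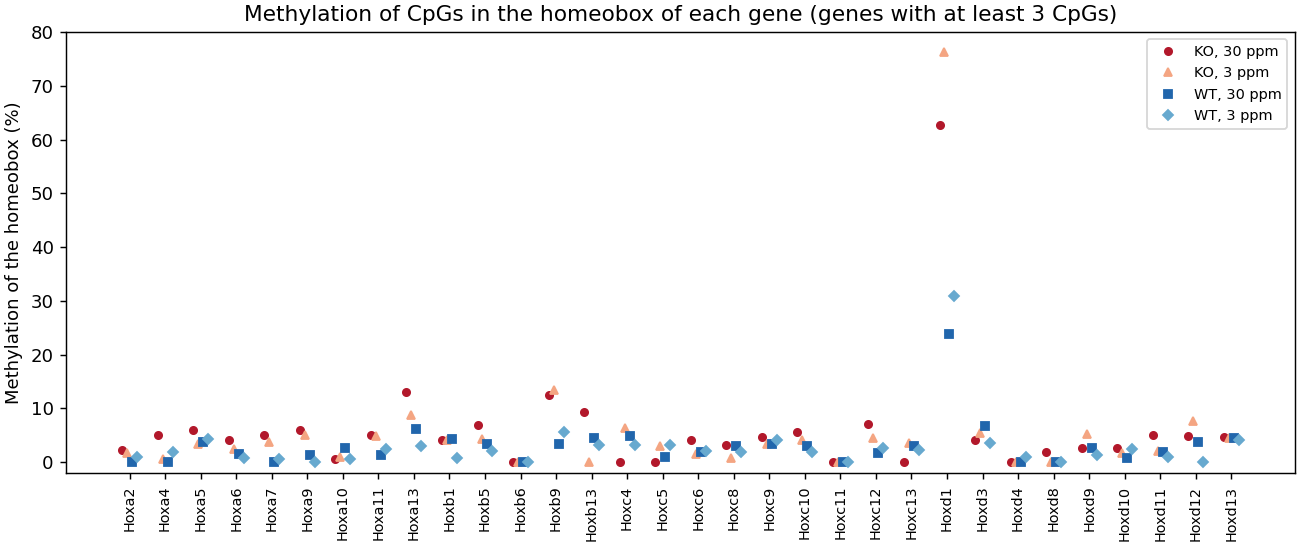
Methylation level (percent of reads) of the CpGs within the homeobox, for the 32 genes with at least 3 measured CpGs there, with 1 point for each library. Hoxd1 lies at 23.9% to 76.3% with KO above WT, and the other 31 genes stay at or under 13.4%.

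Hoxc13 and Hoxa13, end genes that act in the tail region, hair and limb, came next by the mean of the diets. The Hoxc13 window stood at 17.1% (14.9 to 19.4) in KO 30 ppm, 7.71% (6.33 to 9.35) in WT 30 ppm, 17.0% (15.4 to 18.8) in KO 3 ppm and 7.95% (6.60 to 9.55) in WT 3 ppm, with adjusted p = 1.1e-10 at 30 ppm and 1.1e-12 at 3 ppm in Fisher's exact test. KO was above WT by 9.36 points at 30 ppm and by 9.06 at 3 ppm. The Hoxa13 window stood at 22.7% in KO 30 ppm, 14.7% in WT 30 ppm, 20.96% in KO 3 ppm and 15.3% in WT 3 ppm, the highest WT level in HoxA. Hoxb13, the third end gene with a call at both diets, was at 10.9%, 6.78%, 11.1% and 6.44%, and its difference at 30 ppm changed sign to -0.800 points with 1 CpG kept per 200 bp.

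Hoxb9, Hoxd8, Hoxd9, Hoxd12 and Hoxa7 of the middle and posterior groups were also among the 12 of largest mean difference, genes that pattern the trunk and limbs. Hoxb9 stood at 9.83% in KO 30 ppm, 2.81% in WT 30 ppm, 9.56% in KO 3 ppm and 5.32% in WT 3 ppm. Hoxd8 stood at 15.5%, 7.76%, 14.5% and 9.22% in the same order, Hoxa7 at 16.1%, 10.4%, 14.3% and 9.10%, Hoxd12 at 9.68%, 5.40%, 9.76% and 3.84%, and Hoxd9 at 10.8%, 6.38%, 10.7% and 7.41%. In all 5 the lower KO library was above the higher WT library, as in 36 of all 38 members. The 5 were chosen by their KO minus WT difference, so this order adds nothing to the choice. The body of Hoxd9 alone gave a difference of -0.637 points on the 30 ppm diet and 1.67 on the 3 ppm diet.

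Among genes of the anterior groups, which pattern the hindbrain, Hoxb1, Hoxc4 and Hoxa4 were called at both diets with differences between 4.18 and 5.28 points. Hoxb1, a gene of the fourth hindbrain segment, was at 14.0%, 8.71%, 15.4% and 10.53%, the highest WT level in HoxB. Hoxc4 was at 10.3%, 5.87%, 10.3% and 5.34%, and Hoxa4 at 9.42%, 5.25%, 10.1% and 5.26%. Hoxa2, which specifies the second branchial arch and hindbrain segments, was the lowest gene of all with 2.35% (1.59 to 3.44), 2.31% (1.62 to 3.28), 2.06% (1.49 to 2.84) and 1.38% (0.876 to 2.17), and was not called. Hoxb2, of the same paralogue group, was at 2.67%, 3.08%, 5.36% and 3.96%, the only member below WT at 30 ppm, by 0.406 points, with no call. These 2 genes were also the only ones whose KO and WT libraries overlapped. The lowest WT levels elsewhere were those of Hoxb6 in HoxB, Hoxc11 in HoxC and Hoxd11 in HoxD, with means of 3.36%, 2.63% and 4.22%. The 14 other members called at both diets differed by 1.52 to 3.48 points at 30 ppm and 1.66 to 4.36 points at 3 ppm.

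Windows were also set side by side by paralogue group, from anterior to posterior. The median KO minus WT difference of the windows was 3.45 points at 30 ppm and 3.45 at 3 ppm in groups 1 to 4 (11 genes), 2.59 and 2.65 in groups 5 to 8 (11 genes), and 2.79 and 3.02 in groups 9 to 13 (16 genes). Within each of these sets the difference ran over a wider range than between their medians, for example from -0.406 to 20.03 points in groups 1 to 4 at 30 ppm. Calls at both diets fell on 9, 6 and 11 genes of the sets, beside 27.6% of all windows. The promoters of the same sets had median differences of 2.85 and 2.76 points, 2.69 and 1.11 points, and 0.113 and 1.34 points (15 promoters in groups 9 to 13), with 1, 0 and 1 called at both diets beside 12.8% of all promoters. The sets were not tested against each other.

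**Figure D3:**
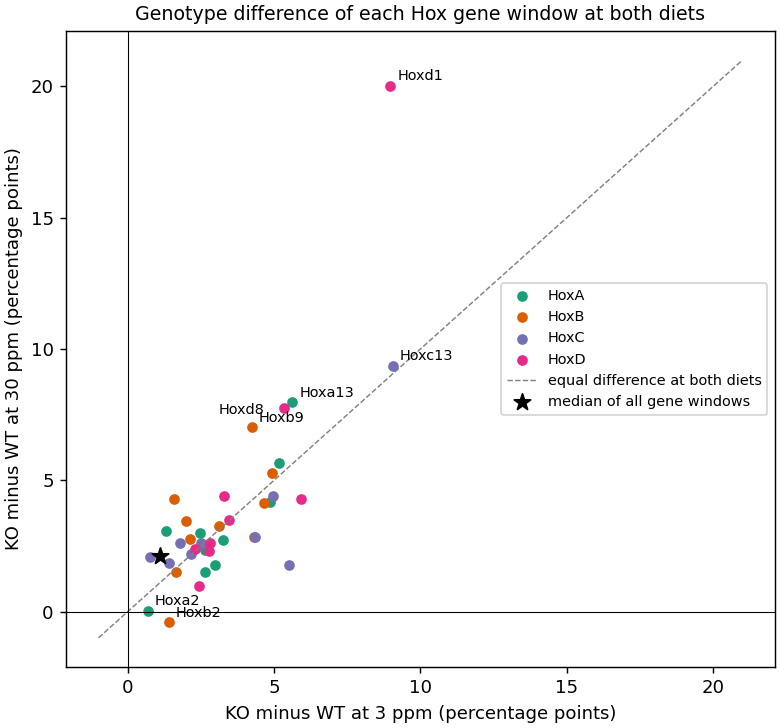
KO minus WT difference of each Hox gene window in percentage points, at 3 ppm on the x axis and at 30 ppm on the y axis, coloured by cluster, with the dashed line of equal differences and a star at the median of all gene windows. Hoxd1 lies far above the line at 20.03 points, Hoxc13 lies on it at about 9 points, and Hoxb2 is the only point below 0 on the y axis.

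A fit over the 4 libraries with genotype and diet as terms (limma on the log2 ratio of methylated to unmethylated reads) called 35 of the 38 windows higher in KO, against 14.9% of all windows. An unadjusted p under 0.05 was found in 37, against 29.7% of all windows. The share called was also large in like classes: 27 of 40 homeobox genes outside the clusters (67.5%) and 22 of 43 Fox genes (51.2%). Of 7 listed upstream activators and boundary genes, among them Evx1 and Evx2, 6 were called (85.7%). On the scale of fractions the fit called 11 of the 38 Hox windows, against 16.5% of all windows. There it called 10 of the 40 homeobox genes, 16 of the 43 Fox genes and 3 of the 7 activators and boundary genes. The Hox share on that scale was near that of the homeobox genes and under those of the Fox, activator and boundary genes. No member was called lower by this fit on either scale, where 0.775% and 0.571% of all windows were. The spread between libraries was shared across all windows, so each had the same SE of 0.144, and in 20 of the 38 the counting error alone, up to 0.283, was larger. Hoxc13 rose by 1.27 on the log2 scale (adjusted p = 9.7e-16) and Hoxb9 by 1.39 (adjusted p = 4.5e-19). No tile in the genome passed this fit on either scale. Of the 462 Hox tiles, 136 had an unadjusted p under 0.05, where 7.75% of all tiles did, and their smallest adjusted p was 0.212. On the scale of fractions 93 had an unadjusted p under 0.05, where 8.58% of all tiles did, and the smallest adjusted p was 0.0521.

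Fewer Hox promoters than windows were called. Of 37 with measured CpGs (Hoxa13 had none that passed), 3 were called higher in KO at 30 ppm, where 21.8% of all promoters were, and 6 at 3 ppm, where 26.9% were. Hoxd1 and Hoxd12 were called at both diets, against 12.8% of all promoters. The Hoxd12 promoter was at 10.9% in KO 30 ppm, 4.94% in WT 30 ppm, 15.1% in KO 3 ppm and 1.80% in WT 3 ppm. Hoxc6 was called at 30 ppm alone, and Hoxa5, Hoxa10, Hoxb5 and Hoxd10 at 3 ppm alone. No promoter was called lower, where 0.507% and 1.04% of all promoters were, with 1 at an unadjusted p under 0.05 at 30 ppm and 0 at 3 ppm. The median Hox promoter stood at 5.56%, 3.33%, 4.78% and 3.21%, and that of all promoters at 44.5%, 35.9%, 44.3% and 35.4%. The median difference was 2.14 and 1.55 points in Hox promoters and 3.98 and 3.40 points in all promoters. These points belong to unlike levels, so they do not rank the size of the KO difference. Both KO libraries were above both WT libraries in 20 of the 37, or 54.1%, against 54.8% of all promoters.

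Along the clusters, 462 tiles of 1 kb could be tested. Of these, 17 were called higher in KO at 30 ppm (adjusted p under 0.05 and at least 10 points), where 1.13% of all tiles were, and 21 at 3 ppm, where 1.1% were. None was called lower, where 0.0487% and 0.114% of all tiles were, with 2 and 4 lower at an unadjusted p under 0.05. At both diets 6 were called, against 0.367% of all tiles. At either diet 32 were called, beside 34666 of all 1863069 tiles. Both KO libraries were above both WT libraries in 254 tiles (55.0%), against 22.5% of all tiles. With 1 CpG kept per 200 bp the calls fell to 0 at 30 ppm and 2 at 3 ppm of 490 tiles, where those over all tiles fell to 0.0139% and 0.0379%.

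Since most of the genome is highly methylated, tiles were also set beside others in the same class of level. Tiles under 10% in the WT library of the other diet made up 334 of the 462 at 30 ppm, and 2.1% of them were called, against 5.42% of such tiles over the genome. At 3 ppm 2.99% of 335 were called, against 6.4%. Tiles of 10% to 50% were called in 9.33% of 75 at 30 ppm and 12% of 75 at 3 ppm, against 11.2% and 11.1%. Among tiles above 50%, 3 of 53 and 2 of 52 were called, or 5.66% and 3.85%, against 0.731% and 0.656%. The median difference of the low tiles was 2.00 and 1.67 points, and 1.93 and 1.73 points over the genome. Beside tiles of the same class, the share called was thus under that of the genome in low tiles, near it in intermediate tiles and above it in the few high tiles. These gaps were not tested. Levels within the class above 50% were not matched, and the median of all tiles was 87.4% in WT 30 ppm and 88.1% in WT 3 ppm. A rise of 10 points has little room there.

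HoxC held 2 of the 6 tiles called at both diets, between the genes Hoxc13 and Hoxc12, the first of them inside the Hoxc13 window. The tile chr15:102929001-102930000 was at 50.9% (41.6 to 60.3) in KO 30 ppm, 16.8% (11.6 to 23.6) in WT 30 ppm, 53.6% (47.04 to 60.1) in KO 3 ppm and 13.01% (8.17 to 20.1) in WT 3 ppm, a difference of 34.2 points at 30 ppm and 40.6 points at 3 ppm (adjusted p = 7.7e-06 and 3.8e-11, Fisher's exact test). The tile chr15:102933001-102934000 was at 24.2%, 8.0%, 23.3% and 8.45%. The whole stretch between the windows of Hoxc13 and Hoxc12 was at 17.0%, 6.19%, 16.1% and 6.58%, and that between Hoxc12 and Hoxc11, which holds the noncoding gene Hotair, at 20.1%, 8.73%, 15.3% and 7.86%. KO was 2.74 and 2.44 times WT in the first of these stretches and 2.31 and 1.95 times in the second, at 30 and 3 ppm. The tile chr15:102989001-102990000 in the Hoxc5 intron was called at 3 ppm alone, on 3 CpGs, at 41.5%, 21.4%, 43.3% and 11.6%.

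HoxD held 2 such tiles at Hoxd1. The tile chr2:74762001-74763000, on its promoter and the noncoding gene Haglr, was at 25.9%, 3.33%, 21.5% and 8.42%. The tile chr2:74764001-74765000, which holds the DMR, was at 72.4%, 54.5%, 77.9% and 58.3%. The tile chr2:74674001-74675000, upstream of Hoxd12, was called at 3 ppm alone and stood at 16.1%, 5.26%, 17.7% and 1.86%.

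HoxB held the other 2. The tile chr11:96196001-96197000 in an exon of Hoxb13 was at 24%, 7.5%, 21.9% and 5.03%, and chr11:96256001-96257000 in the noncoding gene Gm53 at 17.1%, 3.61%, 16.3% and 4.64%. The difference of the Hoxb13 tile at 30 ppm was -2.54 points with 1 CpG kept per 200 bp. The tile chr11:96267001-96268000 upstream of Hoxb9 was called at 30 ppm alone, at 35.9%, 12.96%, 29.5% and 12.6%. HoxA held 2 called tiles, both at 30 ppm alone and both in Hoxa7. The first, in an intron, was at 28.4%, 10.6%, 17.3% and 7.35%, just under the 10 points asked of a call at 3 ppm, and the second, over an exon, at 22.2%, 11.49%, 15.2% and 9.01%.

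CpG islands were defined on the reference sequence (at least 200 bp, 50% G and C, an observed to expected CpG ratio of 0.6, repeats left out). The clusters held 154 of them, and 129 were measured. Their median level was 2.44% in KO 30 ppm, 1.72% in WT 30 ppm, 2.71% in KO 3 ppm and 1.85% in WT 3 ppm. In KO 30 ppm 94.6% of them were under 10%, against 32.1% of all islands. This definition takes in many methylated stretches, since the median of all 37100 measured islands was 77.1%, 66.7%, 77.0% and 67.5% in the same order. Pooled over island CpGs, the clusters stood at 4.72%, 3.30%, 4.57% and 3.13%. In the shores, up to 2 kb from an island, they stood at 12.1%, 7.66%, 11.53% and 7.82%, so the difference grew from 1.42 and 1.44 points in islands to 4.41 and 3.71 points in shores. Over the autosomes it was 2.89 and 4.58 points in islands and 4.29 and 3.12 points in shores. The 2 Hox islands of highest level were one in the Hoxd1 DMR, at 71.3%, 42.9%, 78.1% and 44.7%, and one between Hoxb13 and Hoxb9, at 93.8%, 76.8%, 93.0% and 79.9%.

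**Figure D4:**
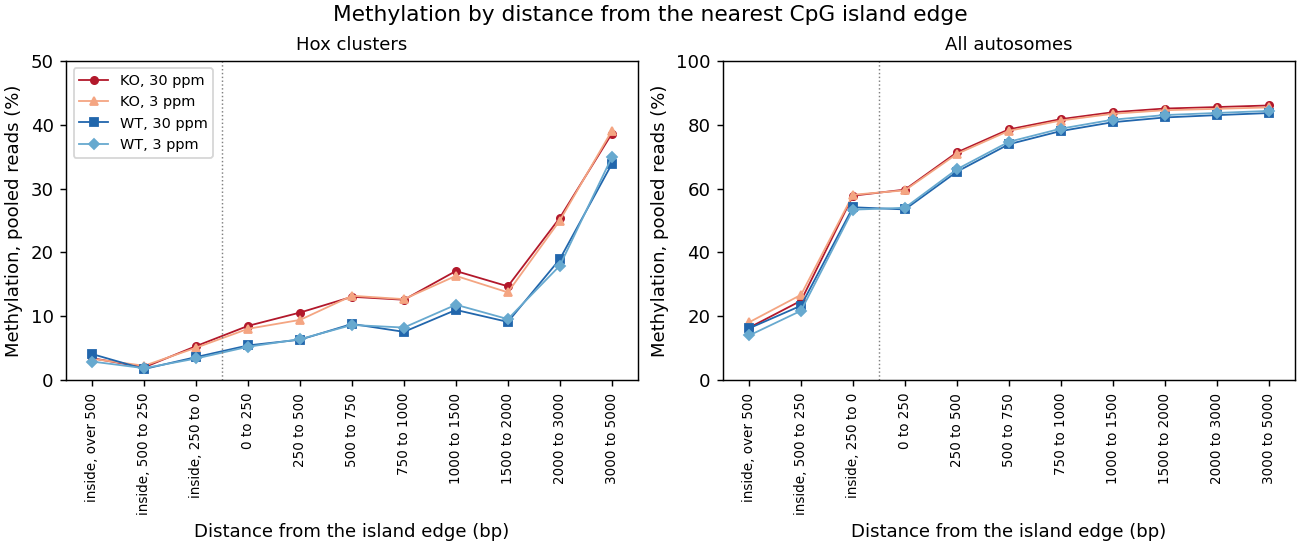
Methylation level (percent of pooled reads) by distance in bp from the nearest CpG island edge, inside islands left of the dotted line and outside right of it, for the Hox clusters (left, axis to 50%) and all autosomes (right, axis to 100%), with 1 line for each library. In the clusters the KO and WT lines lie close deep inside islands, at 2.01% and 1.74% in the 30 ppm libraries 250 to 500 bp in, and part toward the edge, with both KO lines above both WT lines in every bin outside.

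Few Hox windows were called between diets. The median difference between 30 ppm and 3 ppm was 0.0741 points in KO and -0.0290 points in WT over the 38 windows, against 0.547 and -0.501 points over all windows. These comparisons share libraries with those of genotype, and each sets 1 embryo beside 1 of another pregnancy, so diet and litter cannot be told apart. In KO, no window was called higher at 30 ppm, where 9.41% of all windows were, and Hoxb2 was called lower, where 1.94% were. In WT, Hoxb3 was called higher at 30 ppm, where 1.98% were, and Hoxd1 and Hoxb9 were called lower, where 10.1% were. Unadjusted, 2 windows in KO and 5 in WT had a p under 0.05. No promoter was called between diets in either genotype, with 2 in KO and 3 in WT at an unadjusted p under 0.05, where 1.01% of all promoters were called higher and 0.804% lower in KO, and 0.522% and 0.462% in WT. The genotype difference of no Hox promoter passed the Wald test between diets, where 0.743% of all promoters were larger at 30 ppm and 0.588% at 3 ppm.

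One tile was called between diets, chr15:102945001-102946000 in Hotair, a long noncoding RNA gene of HoxC. Its level was 33.2% (28.6 to 38.2) in KO 30 ppm, 11.2% (8.27 to 15.1) in WT 30 ppm, 17.4% (14.2 to 20.98) in KO 3 ppm and 9.88% (7.12 to 13.6) in WT 3 ppm. KO 30 ppm was above the other 3 libraries, by 15.9 points over KO 3 ppm (adjusted p = 0.0011, Fisher's exact test), where 0.043% of all tiles were called higher and 0.0253% lower. In WT no Hox tile was called between diets, where 0.00886% of all tiles were higher and 0.0381% lower, with 30 at an unadjusted p under 0.05. The call was lost with libraries thinned to the same mean depth. The test of whether the genotype difference depended on diet did not pass for this tile (adjusted p = 0.54, Wald test of the log odds ratios) or for any other Hox tile, with 28 at an unadjusted p under 0.05, where 0.0542% of all tiles were called larger at 30 ppm and 0.015% larger at 3 ppm.

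The genotype difference of 2 windows was larger at 30 ppm than at 3 ppm in the same test, where 15.0% of all windows passed, and that of 0 windows larger at 3 ppm, where 2.06% did. They were Hoxd1 (adjusted p = 0.0022, Wald test) and Hoxb9 (adjusted p = 0.033, Wald test). In both the WT libraries moved more than the KO libraries: Hoxd1 was 6.02 points lower at 30 ppm in WT and 5.05 points higher in KO, and Hoxb9 2.51 points lower in WT and 0.275 points higher in KO. With 1 CpG kept per 200 bp, neither passed, where 4.83% of all windows did.

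Genes around Hox regulation were described by the same windows. Evx1, a homeobox gene next to HoxA, was at 6.24% in KO 30 ppm, 1.58% in WT 30 ppm, 6.28% in KO 3 ppm and 2.54% in WT 3 ppm. Evx2, next to HoxD, was at 9.85%, 7.78%, 11.3% and 6.52%. Of the 9 Pbx, Meis and Pknox genes, whose proteins bind DNA together with Hox proteins, 8 were called at 30 ppm and 5 at 3 ppm, at a median level of 78.9% in KO 30 ppm, beside the 51.3% and 36.4% of all windows called higher, which hold for the next lists too. Of 7 retinoic acid genes, which code for receptors and enzymes of the signal that switches Hox genes on, 5 and 4 were called higher. Of 12 Polycomb genes, which keep Hox genes silent, 5 and 3 were called higher and 0 and 1 lower, and of 5 Trithorax genes, which keep them active, 3 and 2 were higher. The 14 listed noncoding genes lie in the clusters except for Halr1 beside HoxA, and had no test. All were higher in KO at both diets, beside 65.0% of all protein-coding windows, with medians of 6.53%, 4.05%, 6.56% and 4.26%. Some of their windows share CpGs with those of the members, so they are not a separate set. Among the noncoding genes, Hotair was at 22.0%, 9.66%, 15.4% and 8.27%, and Mir10a, a microRNA gene next to Hoxb4, at 8.06%, 2.17%, 6.28% and 3.90%.

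The nearest class for comparison was 40 homeobox genes outside the clusters, such as En1, En2, Otx2 and the Dlx genes of the developing brain. Their median levels were 8.99%, 6.83%, 8.13% and 6.73%, close to those of the Hox genes, with median differences of 2.47 and 1.86 points. At 30 ppm 28 of the 40 and at 3 ppm 26 were called higher, at both diets 20, and none lower, beside 51.3%, 36.4% and 27.6% of all windows. The 43 genes whose symbol starts with Fox were higher in level, with a median of 54.2% in WT 30 ppm, and 22 were called at both diets. No test of a difference between these classes was made.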

How the data were processed

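Whole-genome bisulfite sequencing was used on 4 libraries, 1 for each genotype and diet. According to the paper's methods and the submitters' processing notes, the authors trimmed reads with Trim Galore 0.6.10, aligned them with Bismark 0.23.1 to GRCm38.p6 (mm10), removed duplicates and joined the calls of the 2 strands. For every CpG the deposited files give the read count and the fraction of reads methylated, from which methylated read counts were recovered as whole numbers. The deposited DMR lists, made by the authors with DSS between single libraries, were used for positions only, and the lists with their own statistics were not used.

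A CpG was used where every library had at least 5 reads, which left 14907672 on the autosomes, where mean depth was 13.2 to 21.2 reads a CpG. Reads were summed over 1 kb tiles and promoters with at least 3 CpGs and over gene windows. Pairs of libraries were compared by a two-sided Fisher's exact test with Benjamini-Hochberg adjustment over all features, and called at an adjusted p under 0.05, for tiles with at least 10 points as well. The dependence of the genotype difference on diet was tested by a Wald test of log odds ratios, and genotype over both diets with limma 3.58.1 (R 4.3.3), as log2 of methylated plus 1 over unmethylated plus 1. Scripts ran in Python 3.11.15 with scipy 1.17.1, and the tests were tried on simulated data.

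The members and gene lists were chosen with earlier results of these data known. Named were the 12 windows, and the promoters, of largest mean difference among those called at both diets, the genes of highest and lowest WT level in each cluster, up to 3 tiles a cluster called at both diets or else at 1, tiles called between diets, and listed DMRs with at least 5 CpGs. Sequence is shown for 3 of the 4 of largest difference, and that of the other is not reported here. The alternatives tried were 10 reads a CpG, thinning to the same mean depth, 1 CpG per 200 bp, other feature sizes and other scales.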

Additional observations from a re-analysis of the deposited data

Results flagged for a closer look

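The genotype difference of 2 gene windows was larger in the 30 ppm pair than in the 3 ppm pair in the Wald test of log odds ratios, adjusted over all windows, where 15.0% of all windows passed. With 1 library behind each level, diet and litter cannot be told apart. With 1 CpG kept per 200 bp, 0 Hox windows passed, where 4.83% of all windows did. The Hoxd1 window was methylated at 64.6% in KO 30 ppm, 44.6% in WT 30 ppm, 59.6% in KO 3 ppm and 50.6% in WT 3 ppm, and the difference of 20.03 points at 30 ppm was larger than that of 8.96 points at 3 ppm (adjusted p = 0.0022). The Hoxb9 window was at 9.83%, 2.81%, 9.56% and 5.32% in the same order, and the difference of 7.03 points at 30 ppm was larger than that of 4.24 points at 3 ppm (adjusted p = 0.033).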

How the results depend on the processing

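Shares over the whole genome under the same setting stand in brackets. With 10 reads a CpG, Hox tiles called higher in KO numbered 10 at 30 ppm and 10 at 3 ppm of 314 (0.681% and 0.561%), with libraries thinned to the same mean depth 13 of 452 at 3 ppm (0.547%), and with 1 CpG per 200 bp 0 and 2 of 490 (0.0139% and 0.0379%). Windows called higher numbered 19 and 19 of 38 in gene bodies alone (46.1% and 30.6%), 7 and 7 with at least 5 points (14.6% and 11.3%), and 17 and 13 with 1 CpG per 200 bp (26.0% and 11.7%). The limma fit called 11 windows on the scale of fractions (16.5%). Promoters called higher at 30 ppm numbered 5 of 27 with 10 reads a CpG (16%) and 0 of 31 with 500 bp on each side (8.85%), and at 3 ppm 2 of 31 with 500 bp (12.8%). The Hotair tile, called between diets in KO, was lost, leaving 0 tiles, with thinning (0.0213%), tiles of 500 bp (0.0284%) and 1 CpG per 200 bp (0.00268%). Of windows between diets, 1 was higher in KO with thinning (7.46%), and the 1 lower in KO and the 1 higher in WT became 0 with 10 reads (0.539% and 0.412%), gene bodies alone (1.52% and 1.56%), 5 points (0.722% and 0.878%) or 1 CpG per 200 bp (0.0391% and 0.0488%). The 2 lower in WT became 1 with 10 reads (8.49%), gene bodies (9.54%) or 5 points (1.12%), and 0 with thinning (7.51%) or 1 CpG per 200 bp (2.05%). In the Wald test between diets, 1 window passed with 10 reads (11.9%) and, in an alternative chosen after seeing the data, 0 with 1 CpG per 200 bp (4.83%). KO minus WT of whole clusters with 10 reads was 4.10 and 4.07 points in HoxA at 30 and 3 ppm, 4.09 in HoxB at 30 ppm, 6.25 and 5.70 in HoxC, and 5.46 and 3.66 in HoxD. As a mean over CpGs it was 2.26 in HoxA at 3 ppm and 3.32 and 3.09 in HoxC. At 30 ppm the Hoxb13 window turned to -0.800 points and the Hoxb13 tile to -2.54 with 1 CpG per 200 bp, and the Hoxd9 window to -0.637 in its body alone. Causes were not tested. No paired analysis was possible because each group is 1 library and the labels give no replicate numbers. Of 12127 Hox CpGs, 6182 passed the minimum of 5 reads.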
